A study of Mus musculus with 10 samples.

Results

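The 39 genes described here encode the enzymes and transporters of glycolysis and the genes best known to respond to low oxygen in mouse cells. They were taken by symbol from an intronic RPKM table of 24901 genes, in which all 39 have 1 entry each. Newly made RNA of mouse embryonic stem cells was profiled with Bru-seq. Cells took up 2 mM bromouridine for 10 min, and the labelled RNA was captured with an antibody and sequenced. Intronic RPKM counts the reads that fall in introns, scaled to the length of the introns and the depth of the library, and thus follows transcription in progress more than stored mRNA. All cells were grown with LIF and with the inhibitors PD0325901 (1 µM) and CHIR99021 (3 µM).

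The 10 samples form 5 groups of 2. EloA_K754M and EloA_K754R carry Elongin A, part of a factor that speeds elongation by RNA polymerase II, with methionine or arginine in place of lysine K754, and EloA_WT carries the unsubstituted form. Eed_null cells lack Eed, which Polycomb repressive complex 2 needs for its work on histone H3, and CJ7_WT is a wild-type line. Each of the 6 Elongin A libraries has a column of its own, whereas Eed_null and CJ7_WT are each given as 1 pooled column, which allows no test. The line field of the labels reads CCE28 for EloA_WT and Eed_null and CJ7 for both substitution groups and CJ7_WT, while the growth protocol given for all samples names CJ7 cells and the column name of Eed_null holds CJ7. As far as the line field holds, substitution and line cannot be told apart in any comparison of a substitution with EloA_WT. The genotype field of the Eed_null samples reads EloA null, against their titles, which were followed. Nothing says that the replicates came from separate cultures, so each p-value speaks only of the spread among these samples, and that spread may be technical. How the substitutions were introduced, and whether a line is 1 clone, is not given in the sources used here.

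Glycolysis splits glucose into pyruvate in the cytosol, and its output of ATP needs no oxygen. When oxygen is scarce, the prolyl hydroxylases of the Egln family no longer mark the alpha subunits Hif1a and Epas1 for destruction, and these pair with Arnt to bind DNA at a short core motif, ACGTG or GCGTG. Their targets include glucose transporters, most glycolytic enzymes and Ldha, which makes lactate from pyruvate. Pdk1, which curbs the oxidation of pyruvate in mitochondria, Vegfa, which calls in blood vessels, and Egln1 and Egln3 themselves are targets too. Embryonic stem cells draw strongly on glycolysis in ordinary culture.

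The core motif was looked for in RefSeq promoters of the GRCm38.p6 build, each holding 250 bases before and 50 bases after an annotated start. Promoters were listed for 35 of the 39 genes. Slc2a3, Bnip3l, Ndrg1 and Epas1 were without an entry. ACGTG or GCGTG stood on either strand in 39 of 50 promoters of these genes (78.0%), in 60.7% of the promoters of the genes tested and in 43.8% of all 32851 promoters. The palindrome CACGTG counts once on each strand. The median GC content was 61.5% for the promoters of the 39 genes, 60.3% for those of the genes tested and 52.7% for all. No match was found in any listed promoter of Eno2, Gbe1, Gpi1, Gys1 or Tpi1. A match is a description and not a measured binding site.

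The promoters of Slc16a3, Bnip3, P4ha2 and Slc2a1 are printed because these genes differed most between replicate columns, as described below, among those with 1 listed promoter and more than a few reads. Hk2 is printed beside them because it holds the same core and hardly differed between replicates. Each runs in the direction of transcription, with the motif in capitals (ACGTG and GCGTG, or CACGT and CACGC where it lies on the other strand).
Slc16a3 (chr11:120948817-120949116, plus strand): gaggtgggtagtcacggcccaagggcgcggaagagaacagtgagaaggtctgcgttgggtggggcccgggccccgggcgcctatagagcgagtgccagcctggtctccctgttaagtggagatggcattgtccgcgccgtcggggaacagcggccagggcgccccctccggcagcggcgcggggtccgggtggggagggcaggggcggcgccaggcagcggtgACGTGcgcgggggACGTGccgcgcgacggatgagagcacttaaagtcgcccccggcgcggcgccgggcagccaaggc
Bnip3 (chr7:138909457-138909756, minus strand): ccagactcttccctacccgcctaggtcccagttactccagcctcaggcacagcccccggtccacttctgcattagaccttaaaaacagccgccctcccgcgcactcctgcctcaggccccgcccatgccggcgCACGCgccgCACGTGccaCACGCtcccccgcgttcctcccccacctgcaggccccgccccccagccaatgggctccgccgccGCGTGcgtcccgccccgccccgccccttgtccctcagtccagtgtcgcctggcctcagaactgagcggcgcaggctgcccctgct
P4ha2 (chr11:54100674-54100973, plus strand): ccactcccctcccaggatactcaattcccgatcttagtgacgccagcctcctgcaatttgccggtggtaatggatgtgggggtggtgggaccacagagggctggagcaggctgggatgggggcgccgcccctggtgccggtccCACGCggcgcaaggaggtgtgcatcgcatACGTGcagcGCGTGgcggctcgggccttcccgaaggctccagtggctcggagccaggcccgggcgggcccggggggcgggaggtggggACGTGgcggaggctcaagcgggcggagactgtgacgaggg
Slc2a1 (chr4:119108495-119108794, plus strand): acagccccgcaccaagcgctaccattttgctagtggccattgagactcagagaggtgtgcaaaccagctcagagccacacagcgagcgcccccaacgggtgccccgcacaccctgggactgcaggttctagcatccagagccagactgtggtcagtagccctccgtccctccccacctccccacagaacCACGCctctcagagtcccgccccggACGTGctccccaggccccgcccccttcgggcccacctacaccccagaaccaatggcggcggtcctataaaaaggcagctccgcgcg
Hk2 (chr6:82774405-82774704, minus strand): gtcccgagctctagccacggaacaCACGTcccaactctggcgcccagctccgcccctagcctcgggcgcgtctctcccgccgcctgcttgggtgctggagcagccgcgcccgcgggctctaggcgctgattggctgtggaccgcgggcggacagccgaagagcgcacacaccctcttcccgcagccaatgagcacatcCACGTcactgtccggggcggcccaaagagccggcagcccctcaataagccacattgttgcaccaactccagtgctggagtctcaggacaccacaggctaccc

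Slc16a3 carried 2 matches within 27 bases before its start, Bnip3 carried 5, P4ha2 4, and Slc2a1 and Hk2 2 each.

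Recovered intronic reads came to 26816912 to 39786317 in the 6 Elongin A libraries, 73233013 in pooled Eed_null and 88149025 in pooled CJ7_WT. All 11 stem cell markers in the table were at 0.1 RPKM or more in all 8 columns, with sums of 163 to 207 RPKM. Sums of 25 fibroblast markers, which include genes that stem cells also express such as Fn1 and Thbs1, were 30.0 to 33.9 RPKM in EloA_K754M, 32.5 to 35.9 in EloA_K754R and 23.9 to 24.3 in EloA_WT. Among them Lum was at 0 in EloA_WT replicate 1 and Twist1 at 0 in EloA_WT replicate 2. The growth protocol names feeder fibroblasts that were depleted and the extraction protocol names feeder-free dishes. Markers of primitive endoderm, trophectoderm, neuroectoderm and mesoderm each summed to at most 3.46 RPKM in any column. Tceb3, which encodes Elongin A, stood at 1.12 to 1.98 RPKM in the 4 substitution libraries and at 1.83 and 2.03 RPKM in EloA_WT, and Eed at 7.97 RPKM in Eed_null and 10.0 RPKM in CJ7_WT. Intronic signal checks neither a substitution nor a null allele that leaves the introns in place.

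Levels of the 39 genes ran from 0.191 to 18.9 RPKM as means over 6 libraries, and where a step has several isoforms, 1 led. Aldoa (aldolase) averaged 18.9 RPKM over the 6 libraries, Gapdh 17.7, Eno1 (enolase) 12.2 and Pgam1 (phosphoglycerate mutase) 10.4, and the ranges of Aldoa and Gapdh overlapped. Aldoc, the brain form of aldolase, averaged 0.846 RPKM and Eno2, the neuronal enolase, 0.271. Hk2, the hexokinase that begins glycolysis, ranged from 6.41 to 10.7 RPKM, and its relative Hk1 from 0.250 to 0.531 RPKM, so that these ranges did not overlap. Of the phosphofructokinases, Pfkp averaged 5.78 RPKM, Pfkl 1.32 and Pfkm 0.456. The factor subunits Hif1a and Arnt averaged 3.37 and 2.75 RPKM, and Epas1 0.483. Gbe1, the glycogen branching enzyme, was lowest at 0.191 RPKM, from 980 or more reads in each library. Adm (adrenomedullin) had 0 to 5 reads, and Eno2, Aldoc, Ankrd37 and Adm had under 60 reads in each of the 6 libraries. In GENCODE M21, 10 of the 39 genes overlap another coding gene, Aldoa, Gapdh, Tpi1, Pfkm, Pfkp, Pgm2, Gys1, Mxi1 and Ankrd37 on the opposite strand and Hif1a on the same one, and their reads could in part belong to that gene.

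Replicate 2 was set against replicate 1 within each Elongin A group. Most of the 39 genes stood lower in replicate 2, in all 3 groups. The gap was widest for Slc16a3, the exporter of lactate, and wide for the targets Bnip3, P4ha2, Ldha, Slc2a1 and Pgk1. Hif1a, Epas1 and Arnt, which encode the factor itself, differed little. No gene of the 39 passed limma on the log2 values with adjustment over all genes. Limma with voom weights on recovered reads called 24 lower, against 5.21% of its genes.

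Replicate 2 lay below replicate 1 in all 3 groups for 30 of the 39 genes, against 26.2% of the 15161 genes tested, and above it in all 3 groups for 0 of 39, against 19.7%. Every replicate 2 value lay below every replicate 1 value, whatever the group, for 18 of 39 genes, against 8.02% of genes tested, and the reverse held for 0 of 39, against 5.77%. The median difference, replicate 2 minus replicate 1 on the log2(RPKM + 0.1) scale used throughout, was -0.59 over the 39 genes and -0.03 over all genes tested. Fitted with limma beside the groups, 0 of 39 genes were called in either direction, with the smallest adjusted p at 0.140, where 0.0% of all genes were called lower and 0.0132% higher. At an unadjusted p under 0.05, 26 of 39 were lower, against 12.7% of all genes, and 0 were higher, against 7.9%. Limma with voom weights on the recovered reads called 24 of the 39 lower, against 5.21% of its genes, and 0 higher, against 3.61%.

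**Figure D1:**
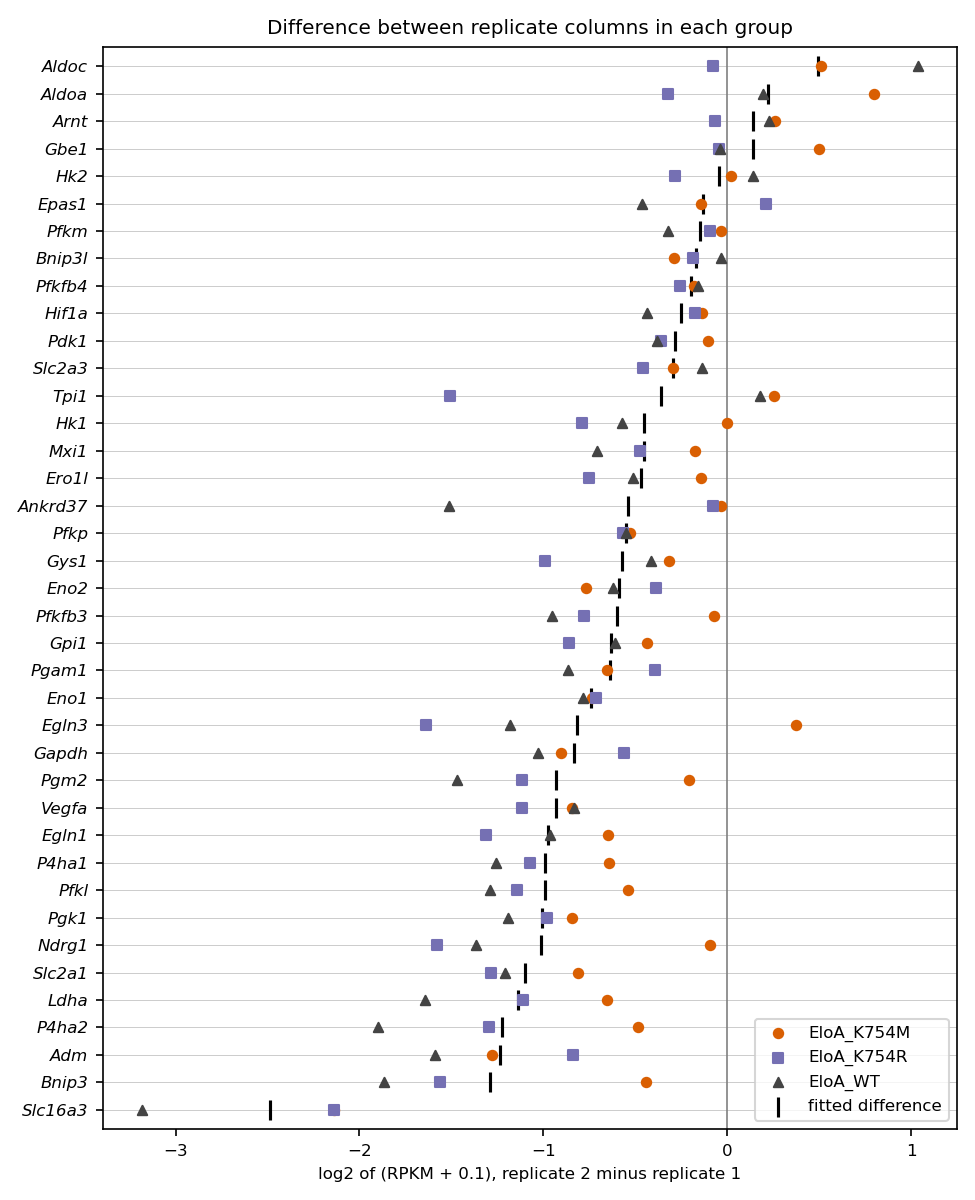
Difference between the replicate columns of each Elongin A group for all 39 genes, in log2(RPKM + 0.1), replicate 2 minus replicate 1. Circles, squares and triangles are the 3 groups, the black tick is the fitted difference, and genes are ordered by it. Most symbols lie left of 0, down to Slc16a3 at a fitted -2.49, where the EloA_K754M circle lies under the EloA_K754R square.

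Among the transporters, Slc16a3 stood at 0.262, 0.423 and 0.460 RPKM in replicate 2 of EloA_K754M, EloA_K754R and EloA_WT, against 1.496, 2.21 and 4.99 RPKM in replicate 1 of the same groups. All replicate 2 values were low and close together, and no value of 1 replicate reached into the other. The fitted difference was -2.49 ± 0.24 (SE), a 5.61-fold lower level (limma unadjusted p = 0.00021, adjusted p = 0.140), and it ran from -2.84 with voom to -1.40 with a pseudocount of 1. Slc2a1, the main glucose importer of most cells, stood at 3.61, 3.94 and 3.15 RPKM in replicate 2, against 6.40, 9.72 and 7.42 RPKM in replicate 1, again with no overlap. Its difference was -1.10 ± 0.12 (limma adjusted p = 0.140). The other glucose importer, Slc2a3, differed by -0.30 and its replicates overlapped.

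Of the 15 glycolytic enzymes, 10 were lower in replicate 2 in all 3 groups. Pgk1, the phosphoglycerate kinase that yields ATP, had 3.85, 6.58 and 4.51 RPKM in replicate 2 of EloA_K754M, EloA_K754R and EloA_WT, against 7.01, 13.1 and 10.4 RPKM in replicate 1. Its difference was -1.01 ± 0.10, with the smallest unadjusted p of the genes listed (limma unadjusted p = 0.000207, adjusted p = 0.140). Ldha had 1.61, 1.71 and 1.14 RPKM in replicate 2, against 2.59, 3.82 and 3.77 RPKM in replicate 1, a difference of -1.14 ± 0.20 (limma adjusted p = 0.145). Neither gene's replicates overlapped.

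Eno1 had 10.6, 7.61 and 9.15 RPKM in replicate 2, against 17.6, 12.5 and 15.8 RPKM in replicate 1, a difference of -0.74 ± 0.08 (limma adjusted p = 0.140). Of the other enzymes lower in all 3 groups, Pfkl stood at -0.99, Gapdh at -0.83, Pgam1 at -0.64, Gpi1 (glucose phosphate isomerase) at -0.63, Eno2 at -0.59 and Pfkp at -0.55. Pfkm, at -0.15, was lower in all 3 groups, by 0.03, 0.09 and 0.32 on the log2 scale in EloA_K754M, EloA_K754R and EloA_WT, where the median replicate spread was 0.195. The 5 enzymes without a common direction were Hk1 (-0.45), Hk2 (-0.04), Aldoa (0.22), Aldoc (0.49) and Tpi1 (-0.36), the triose phosphate isomerase whose value rests on EloA_K754R alone, with 1.35 RPKM in replicate 2 and 4.02 RPKM in replicate 1. Hk2 was well measured, at 7.29, 8.76 and 7.06 RPKM in replicate 2 and 7.20, 10.7 and 6.41 RPKM in replicate 1, from 9220 or more reads each.

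Of the switch enzymes around glycolysis, Pdk1 had 1.58, 1.69 and 1.44 RPKM in replicate 2, against 1.71, 2.20 and 1.91 RPKM in replicate 1, without overlap but with a difference of -0.28 ± 0.09 (limma adjusted p = 0.207). Pfkfb3 and Pfkfb4, which make and break the sugar phosphate that drives phosphofructokinase, stood at -0.60 and -0.20. In glycogen metabolism, Gys1 (glycogen synthase) stood at -0.57, Pgm2 (a phosphoglucomutase) at -0.93 and Gbe1 at 0.14. The symbol Pgm2 belongs in this table to the gene that GENCODE M21 calls Pgm1.

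In oxygen sensing, the hydroxylases and the factor subunits parted. Egln1 had 0.786, 0.854 and 1.09 RPKM in replicate 2, against 1.29, 2.27 and 2.21 RPKM in replicate 1, with no overlap and a difference of -0.97 ± 0.15 (limma adjusted p = 0.140). Egln3 had 0.140, 0.110 and 0.102 RPKM in replicate 2, against 0.0855, 0.553 and 0.359 RPKM in replicate 1. It was lower in EloA_K754R and EloA_WT and higher in EloA_K754M, a difference of -0.82 ± 0.43 (limma adjusted p = 0.342).

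Hif1a had 3.07, 3.33 and 2.82 RPKM in replicate 2, against 3.39, 3.78 and 3.85 RPKM in replicate 1. These did not overlap, yet the difference was only -0.25 ± 0.09 (limma adjusted p = 0.236). Arnt stood at 3.23, 2.52 and 2.94 RPKM in replicate 2, against 2.68, 2.64 and 2.50 RPKM in replicate 1 (0.14 ± 0.10, limma adjusted p = 0.451), and Epas1 at 0.299, 0.545 and 0.513 RPKM, against 0.340, 0.456 and 0.746 RPKM (-0.13 ± 0.16, limma adjusted p = 0.679). Replicates of Arnt and Epas1 overlapped.

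**Figure D2:**
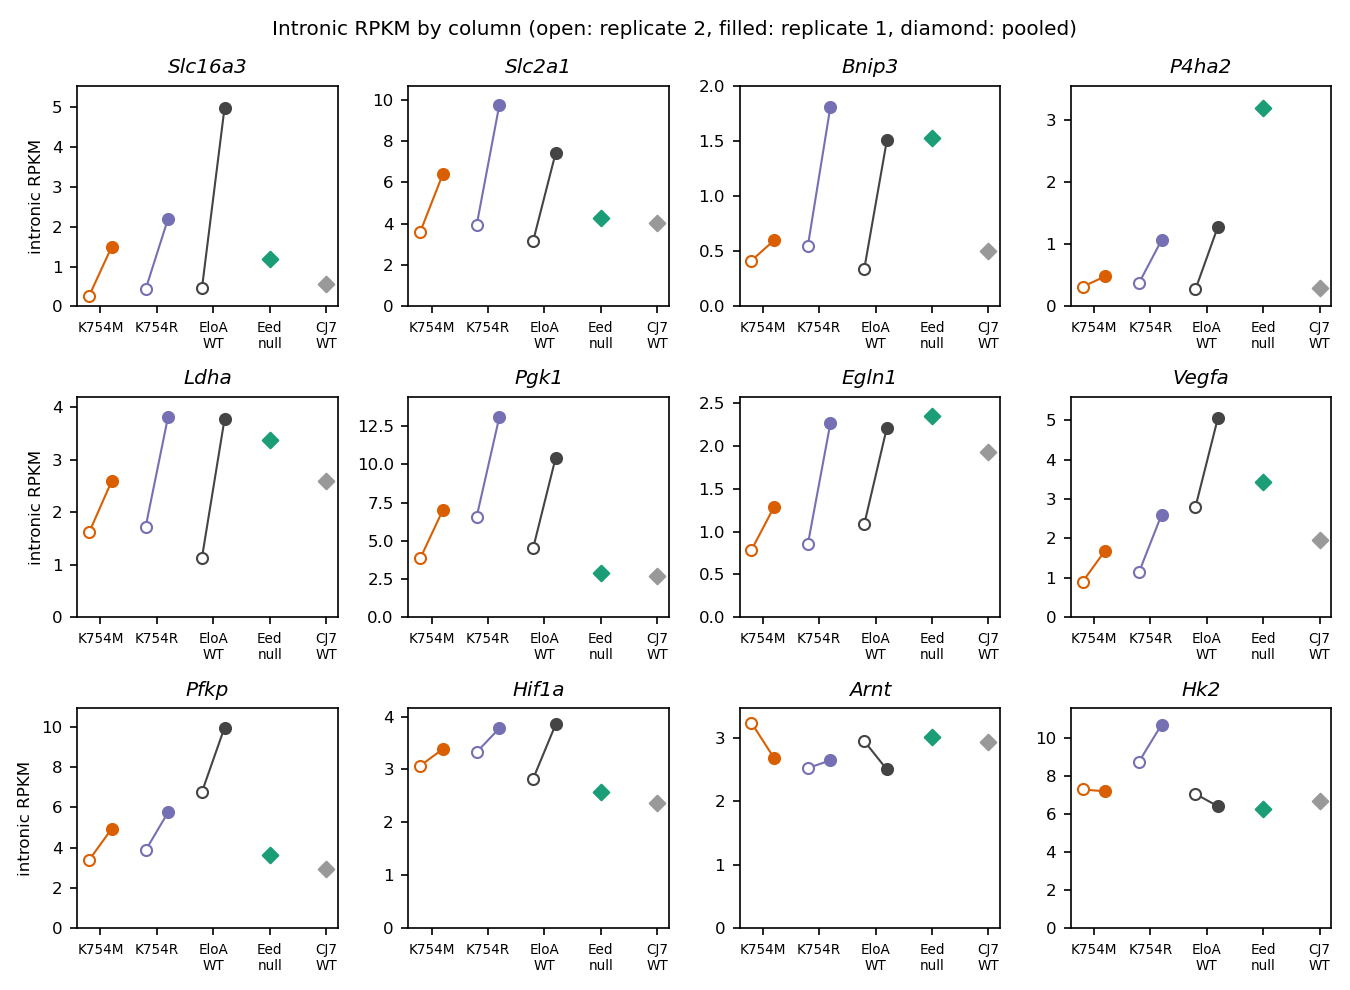
Intronic RPKM of 12 genes in all 8 columns on axes that start at 0. Open circles are replicate 2 and filled circles replicate 1 of each Elongin A group, joined by a line, and diamonds are the pooled Eed_null and CJ7_WT columns. In the panel of Slc16a3, replicate 2 lies at 0.262 to 0.460 RPKM in all 3 groups and replicate 1 at 1.496 to 4.99 RPKM, whereas the Hk2 points of a pair lie close together.

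The remaining targets followed the enzymes. Bnip3, which marks mitochondria for removal, had 0.415, 0.549 and 0.340 RPKM in replicate 2, against 0.599, 1.81 and 1.51 RPKM in replicate 1, a difference of -1.29 ± 0.30 without overlap (limma adjusted p = 0.155). The gap was smallest in EloA_K754M. Its relative Bnip3l stood at -0.17. P4ha2 and P4ha1, prolyl hydroxylases of collagen, stood at -1.23 and -0.99.

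P4ha2 had 0.316, 0.376 and 0.271 RPKM in replicate 2, against 0.482, 1.07 and 1.29 RPKM in replicate 1. Its gap, like that of Bnip3, was smallest in EloA_K754M and widest in EloA_WT. Vegfa had 0.901, 1.14 and 2.79 RPKM in replicate 2, against 1.69, 2.60 and 5.06 RPKM in replicate 1. Its difference of -0.93 ± 0.09 was nearly the same in each group (limma adjusted p = 0.140), while EloA_WT replicate 2 lay above both replicate 1 values of the substitution groups. Ero1l, which forms disulphides in the endoplasmic reticulum, stood at -0.47, Ndrg1, a gene induced in many stressed cells, at -1.01, Mxi1, an antagonist of Myc, at -0.45 and Ankrd37 at -0.54. The Ankrd37 value rests on EloA_WT and on 14 to 53 reads. Ndrg1, Egln3, P4ha2 and Bnip3 had a wider gap in EloA_K754R and EloA_WT than in EloA_K754M. There it was -0.09 for Ndrg1, -0.48 for P4ha2 and -0.44 for Bnip3, and opposite for Egln3 (0.37). Other genes did likewise, among them Pgm2 (-0.21 in EloA_K754M), Pfkfb3 (-0.07), Ero1l (-0.14) and Hk1 (0.0015). Whether the replicate gap differs by group could not be tested with 1 library per replicate and group.

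The gap was uneven among neighbours in the pathway. Of all genes tested, 26.2% were lower in replicate 2 in all 3 groups and 19.7% were higher. Of 26 tested genes in a second list of known hypoxia targets, 12 were lower and 1 was higher. For 7 of these 26, every replicate 2 value lay below every replicate 1 value, against 8.02% of all genes. The reverse held for 0, against 5.77%. Of 16 other glycolysis and pyruvate genes, 6 were lower in all 3 groups and 5 higher. Of 17 glycogen and pentose phosphate genes 7 were lower and 2 higher, and of 13 regulators of the factor 1 was lower and 5 higher. The medians were -0.12, -0.03, -0.11 and 0.10. None of these genes was called by limma on the log2 values. Voom called 6 of the other hypoxia targets and 2 of the glycolysis and pyruvate genes lower, against 5.21% of its genes, and 1 glycolysis and pyruvate gene and 1 glycogen and pentose phosphate gene higher, against 3.61%. Pkm2, the pyruvate kinase entry of the table, had 18.3, 25.1 and 20.8 RPKM in replicate 2, against 33.4, 38.3 and 39.2 RPKM in replicate 1 (-0.79, limma unadjusted p = 0.0012). Kdm4b, a histone demethylase (-0.67), Higd1a, a mitochondrial protein (-0.60), Plod2, a lysyl hydroxylase of collagen (-0.57), and Fam162a (-0.62) were lower in all 3 groups.

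Replicate 2 had 27709899, 39786317 and 29625717 recovered reads in EloA_K754M, EloA_K754R and EloA_WT, against 26816912, 29642281 and 34850303 in replicate 1. Depth was thus higher in replicate 2 in both substitution groups and lower in EloA_WT. The library median on the log2 scale was lower in replicate 2 in all 3 groups. It stood at 0.169, 0.113 and 0.246 in replicate 2, in the same order of groups, against 0.232, 0.157 and 0.409 in replicate 1. With library medians made equal, an alternative chosen after seeing the data, 26 of the 39 were lower in all 3 groups and 13 showed no overlap. The share of all genes under that scaling is not given here. Stem cell marker sums were 179 to 207 RPKM in replicate 2 and 170 to 191 RPKM in replicate 1. Fibroblast marker sums were 24.3 to 32.5 RPKM in replicate 2 and 23.9 to 35.9 RPKM in replicate 1. Of 21 tested fibroblast markers, 12 were lower in replicate 2 in all 3 groups, against 26.2% of all genes, and 1 was higher, against 19.7%. Every replicate 2 value lay below every replicate 1 value for 5 of these markers, against 8.02%, and above for 0, against 5.77%. Limma on the log2 values called 0 of them. Voom called 7 lower, against 5.21% of its genes, and 0 higher, against 3.61%. Their part in the replicate gap was not tested. In bulk RNA, fewer cells that transcribe a gene and less of its RNA per cell cannot be told apart, and the labels do not say what a replicate number shares.

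The substitutions were then compared with EloA_WT. In limma on the log2 values without the replicate number, no gene of the 39 passed the threshold in either substitution. Voom called Aldoc lower and Hk2 higher in EloA_K754R, against 5.92% and 2.72% of its genes. With the replicate number as a block, Vegfa and Pfkp fell in both EloA_K754M and EloA_K754R, and Aldoc also fell in EloA_K754R. Hif1a, Arnt, Slc2a1 and Ldha stood within 0.35 of EloA_WT on the log2 scale in both.

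For EloA_K754M against EloA_WT, limma called 0 of 39 genes, where 0.0132% of all genes were called higher and 0.204% lower. At an unadjusted p under 0.05, 4 were lower, against 10.7% of all genes, and 0 higher, against 4.65%, and voom called 0. Voom called 0.708% of its genes higher and 1.6% lower. With the block, 2 of 39 fell, against 1.23% of all genes, and 0 rose, against 0.27%. The median over the 39 was -0.20, against -0.06 for all genes tested, and 32 of 39 were below 0, against 57.2% of all genes. Without 1 library this median ran from -0.66 to 0.04, so that its direction was not fixed. Both EloA_K754M values lay below both EloA_WT values for 9 of 39 genes, against 27.2% of all genes, and above for 1, Hk2, against 17.0%.

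For EloA_K754R against EloA_WT, limma called 0 of 39, where 0.686% of all genes were called higher and 2.79% lower. At an unadjusted p under 0.05, 2 were lower and 2 higher, against 18.9% and 6.18% of all genes. Voom called 1 lower, Aldoc, against 5.92% of its genes, and 1 higher, Hk2, against 2.72%. With the block, 3 of 39 fell, against 9.12% of all genes, and 0 rose, against 2.61%. The median was 0.06, against -0.14 for all genes, and 23 of 39 were above 0, against 35.5%, and without 1 library the median ran from -0.34 to 0.45. Both EloA_K754R values lay below both EloA_WT values for 5 genes, against 38.8% of all genes, and above for 5, against 18.0%. For the mean of both substitutions, limma called 0 of 39 (all genes 0.139% higher and 1.44% lower), with 4 lower and 1 higher at an unadjusted p under 0.05, against 15.9% and 5.11%. Voom called 1 lower, Pfkp, against 4.55% of its genes, and 0 higher, against 1.42%. With the block the same 3 genes as in EloA_K754R fell, against 5.82% of all genes, and 0 rose, against 1.08%.

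Vegfa had 1.69 and 0.901 RPKM in EloA_K754M and 2.60 and 1.14 RPKM in EloA_K754R, against 5.06 and 2.79 RPKM in EloA_WT, for replicates 1 and 2 in that order. Every substitution value was below every EloA_WT value. The log2 difference was -1.53 for EloA_K754M (limma adjusted p = 0.232, with the block 0.0371) and -1.08 for EloA_K754R (0.243, with the block 0.0245), or 2.88-fold and 2.11-fold lower. Vegfa stood at 1.95 RPKM in the pooled CJ7_WT column, within the range of EloA_K754R and below both EloA_WT values.

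Pfkp, the platelet-type phosphofructokinase, had 4.93 and 3.39 RPKM in EloA_K754M and 5.75 and 3.86 RPKM in EloA_K754R, against 9.95 and 6.76 RPKM in EloA_WT, without overlap. The difference was -0.99 for EloA_K754M (limma adjusted p = 0.210, with the block 0.0447) and -0.79 for EloA_K754R (0.178, with the block 0.0249). CJ7_WT stood at 2.96 RPKM, below all 6 libraries. Pfkp overlaps Pitrm1 on the opposite strand in GENCODE M21, and how strand was handled in counting is not given in the sources used here.

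Aldoc had 0.566 and 0.850 RPKM in EloA_K754M and 0.317 and 0.295 RPKM in EloA_K754R, against 0.964 and 2.09 RPKM in EloA_WT. Both substitutions lay below EloA_WT and did not overlap each other. The difference was -0.94 for EloA_K754M (limma adjusted p = 0.311, with the block 0.152) and -1.91 for EloA_K754R (0.0546, with the block 0.0305). These values rest on 8 to 53 reads a library, and CJ7_WT stood at 0.241 RPKM. CJ7_WT lay below both EloA_WT values for these 3 genes, as it did for 53.1% of all genes tested. Eed_null, whose line field reads CCE28 like that of EloA_WT, stood at 3.42 RPKM for Vegfa, 3.64 for Pfkp and 0.400 for Aldoc. The part of the line in these differences was not tested.

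The other genes closest to the threshold are given as values. Epas1 had 0.340 and 0.299 RPKM in EloA_K754M and 0.456 and 0.545 RPKM in EloA_K754R, against 0.746 and 0.513 RPKM in EloA_WT, a difference of -0.78 for EloA_K754M (limma adjusted p = 0.188) and -0.27 for EloA_K754R (0.496). Hk2 had 7.20 and 7.29 RPKM in EloA_K754M and 10.7 and 8.76 RPKM in EloA_K754R, against 6.41 and 7.06 RPKM in EloA_WT, a difference of 0.52 for EloA_K754R (limma adjusted p = 0.0980). Bnip3l stood at 0.44 and Pfkfb3 at 0.95 in EloA_K754R (limma adjusted p = 0.138 and 0.200), and Pfkm at -0.35 in EloA_K754M (0.427). For Hk2, Bnip3l and Pfkfb3 both EloA_K754R values were above both EloA_WT values.

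The remaining genes given in every comparison, and Slc16a3, passed the threshold in neither fit. Differences in EloA_K754M and EloA_K754R were -0.58 and -0.14 for Egln1, -0.53 and 0.28 for Egln3, -0.49 and 0.41 for Bnip3, -0.39 and 0.43 for Pgk1, -0.03 and 0.29 for Ldha, -0.01 and 0.35 for Slc2a1, and -0.02 and 0.21 for Pdk1. Hif1a stood at -0.03 and 0.10 and Arnt at 0.11 and -0.07. Slc16a3 stood at -1.15 and -0.62, with overlapping group values. For the mean of both substitutions, Egln1 stood at -0.36, Epas1 at -0.52, Egln3 at -0.13, Bnip3 at -0.04, Pgk1 at 0.02, Ldha at 0.13, Slc2a1 at 0.17, Pdk1 at 0.09, Hif1a at 0.03 and Arnt at 0.02. The direction against EloA_WT turned with library scaling for Hif1a, Slc2a1, Ldha and Pdk1 in EloA_K754M and for Arnt and Egln1 in EloA_K754R, and for Bnip3 and Egln3 in the mean. That of Pgk1 in the mean turned with chromosome medians removed and with voom. Making library medians equal moved all differences up by 0.13 in EloA_K754M and by 0.19 in EloA_K754R.

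**Figure D3:**
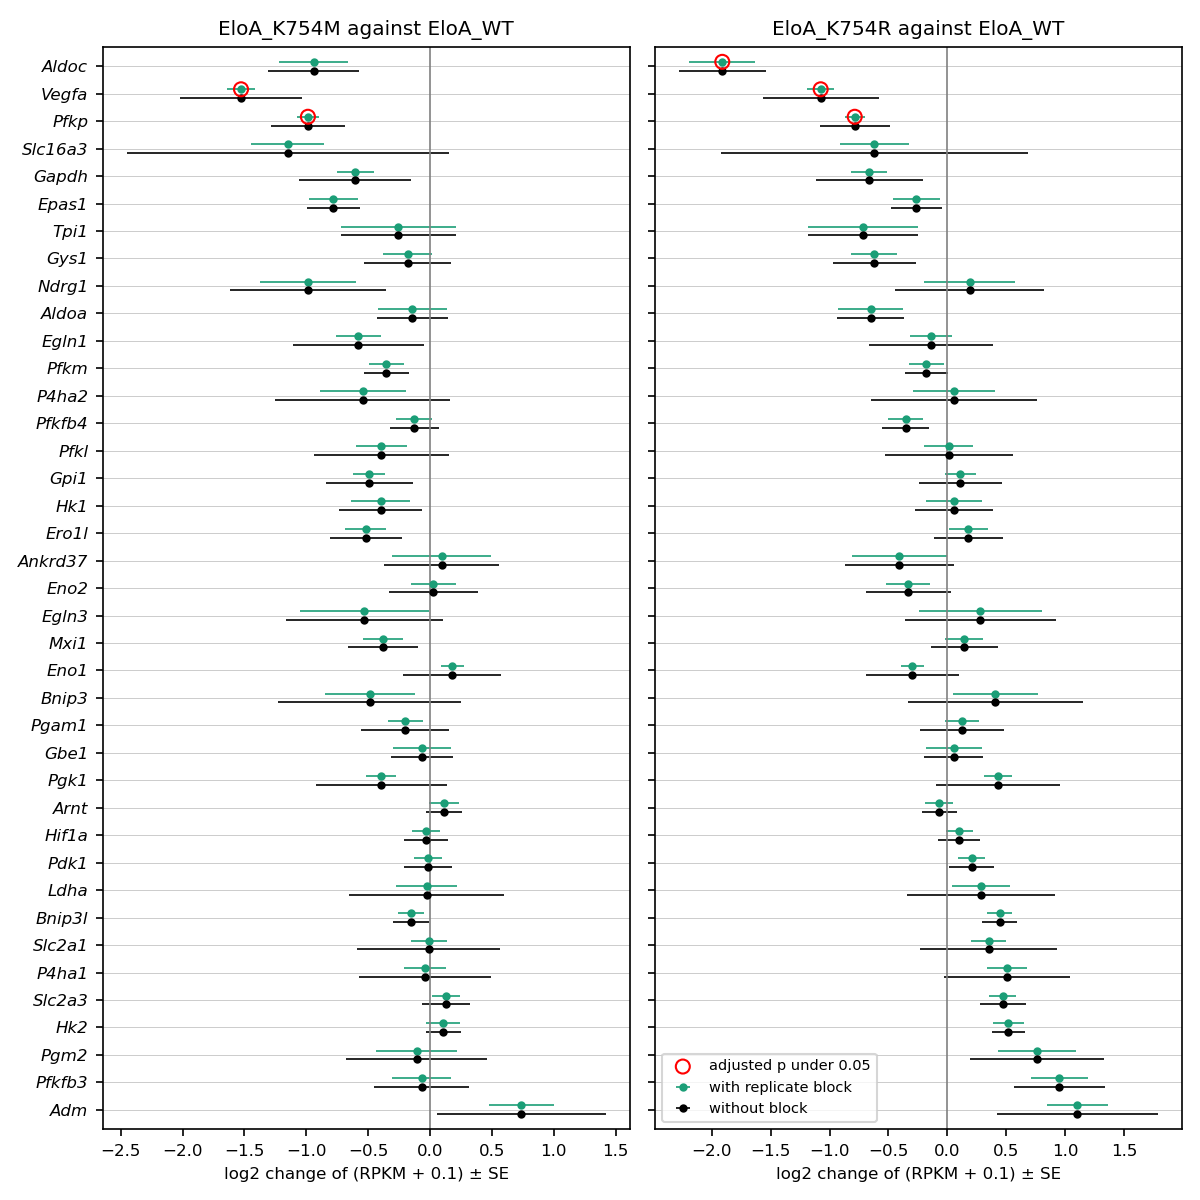
Log2 differences of the 39 genes in EloA_K754M (left) and EloA_K754R (right) against EloA_WT, with standard errors. Green points are from the fit with the replicate block and black points from the fit without it, and red rings mark an adjusted p under 0.05. Rings stand on Vegfa and Pfkp in both panels and on Aldoc in the right one, and the green error bars are shorter for most genes.

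Outside the 39 genes, the pathway lists held a few calls without the block. Of 26 other hypoxia targets, 0 were called in EloA_K754M, 1 fell in EloA_K754R and 2 fell for the mean of both. Of all genes, 0.204%, 2.79% and 1.44% fell in these comparisons. Stc2, a secreted glycoprotein, had 0.232 and 0.227 RPKM in EloA_K754M and 0.820 and 0.261 RPKM in EloA_K754R, against 5.68 and 3.33 RPKM in EloA_WT (EloA_K754R -2.95, limma adjusted p = 0.0421, mean of both -3.35, 0.0378). CJ7_WT stood at 0.793 RPKM. Ak4, a mitochondrial adenylate kinase, fell by 0.83 for the mean of both (limma adjusted p = 0.0477), with 8.90 and 7.88 RPKM in EloA_K754M and 11.8 and 10.1 RPKM in EloA_K754R, against 16.6 and 17.5 RPKM in EloA_WT.

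Of 16 other glycolysis and pyruvate genes, Pdp2, a phosphatase that restores the oxidation of pyruvate in mitochondria, fell by 1.18 in EloA_K754R (limma adjusted p = 0.0493). It had 2.82 and 1.98 RPKM there, against 5.99 and 5.01 RPKM in EloA_WT, and 1.27 RPKM in CJ7_WT. Of 13 regulators of the factor, Tceb2 (Elongin B, a partner of Elongin A and of the ligase that destroys Hif1a) fell by 1.18 in EloA_K754R (limma adjusted p = 0.0475), with 1.49 and 1.69 RPKM against 4.27 and 3.23 RPKM in EloA_WT. Of 17 glycogen and pentose phosphate genes, Pgd, the second dehydrogenase of the pentose phosphate pathway, fell by 0.97 in EloA_K754R (limma adjusted p = 0.0347) and by 0.81 for the mean of both (0.0449). In limma on the log2 values without the block, no gene of these lists was called higher, and none was called in EloA_K754M. That fit called 2.79% of all genes lower in EloA_K754R and 1.44% for the mean of both. Voom called 2 other hypoxia targets lower in EloA_K754M, against 1.6% of its genes. In EloA_K754R it called 4 other hypoxia targets, 1 glycolysis and pyruvate gene, 1 regulator and 2 glycogen and pentose phosphate genes lower, against 5.92%, and 1 glycolysis and pyruvate gene higher, against 2.72%. With the block, 2 other hypoxia targets fell in EloA_K754M, where 1.23% of all genes fell. Of the glycolysis and pyruvate genes 1 fell in EloA_K754M, and in EloA_K754R 2 fell and 1, Ldhb, rose, while 2 regulators and 2 glycogen and pentose phosphate genes fell in EloA_K754R, where 9.12% of all genes fell and 2.61% rose. Fibroblast marker sums were higher in both substitution groups than in EloA_WT, at 30.0 to 35.9 against 23.9 to 24.3 RPKM. Of 21 tested fibroblast markers, 21 were above 0 in EloA_K754M (median 0.41), against 42.6% of all genes. In EloA_K754R 20 were above 0 (median 0.46), against 35.5%. Without the block limma called 0 and 1 of them higher, against 0.0132% and 0.686% of all genes, and with it 1 and 7, against 0.27% and 2.61%. The part of these markers in the differences of the genes above was not tested.

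EloA_K754M was set against EloA_K754R to see whether the substitutions differ. Limma called 0 of 39 genes (all genes 0.112% higher and 0.178% lower), and 0 with the block (1.33% higher and 1.02% lower) and by voom (1.42% and 1.62%). At an unadjusted p under 0.05, 3 were lower and 1 higher, against 6.87% and 11.6% of all genes, and with the block 12 lower and 2 higher, against 10.3% and 16.4%. The median was -0.37 over the 39 genes and 0.09 over all genes, and 29 of 39 were below 0, against 39.4%. Without 1 library the median ran from -0.69 to 0.0086. Both EloA_K754M values lay below both EloA_K754R values for 10 of 39, against 18.6% of all genes, and above for 4, against 31.9%.

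Bnip3l had 2.37 and 1.92 RPKM in EloA_K754M, against 3.495 and 3.06 RPKM in EloA_K754R, a difference of -0.59 ± 0.15 (limma adjusted p = 0.130). Hk2 stood at -0.41 (0.212), with no overlap between the groups, and Pfkfb3 had 0.577 and 0.543 RPKM in EloA_K754M, against 1.65 and 0.919 RPKM in EloA_K754R (-1.02, limma adjusted p = 0.245). Ero1l stood at -0.70 (0.280) and Epas1 at -0.52 (0.282). Aldoc differed the other way, at 0.97 (0.245). Of the genes with wide replicate gaps, Pgk1 stood at -0.82 (limma adjusted p = 0.456, with the block 0.0505), Bnip3 at -0.89, Egln3 at -0.81, Vegfa at -0.45, Egln1 at -0.44, Slc2a1 at -0.36 and Ldha at -0.31. Pdk1 stood at -0.22, Hif1a at -0.13 and Arnt at 0.18.

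Eed_null was compared with CJ7_WT on the pooled columns, as ratios with exact 95% intervals that cover counting error only. Several genes of the oxygen response were higher in Eed_null and none of those past the filter was lower by more than 2-fold. P4ha2 stood at 3.20 RPKM in Eed_null and 0.292 RPKM in CJ7_WT, a ratio of 10.97 (9.83 to 12.3). This rests on 3255 reads against 355. Epas1, the alpha subunit best known from endothelium, stood at 4.25 and 0.950 RPKM, a ratio of 4.48 (4.31 to 4.65). Hif1a (1.09) and Arnt (1.02) were almost level. Markers of other cell types also differed. Of 4 primitive endoderm markers past the filter, 3 were higher in Eed_null by more than 2-fold (median log2 ratio 1.07, 6 markers summing to 2.96 RPKM in Eed_null and 2.65 in CJ7_WT), and Foxa2 was at 0 in both. Of 5 trophectoderm markers past the filter 0 were beyond 2-fold (median 0.87, sum of 7 markers 3.46 RPKM in Eed_null and 1.96 in CJ7_WT), with Cdx2 at 0 in CJ7_WT. Stem cell markers summed to 163 RPKM in Eed_null and 193 in CJ7_WT. Their part in the ratios was not tested.

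Of the 38 genes past the filter, 5 were higher by more than 2-fold in RPKM + 0.1, against 6.12% of 14890 genes, and 0 were lower, against 1.67%. The median log2 ratio was 0.33, against 0.11 for all genes. After P4ha2 and Epas1 came Ndrg1, with 0.924 RPKM in Eed_null and 0.200 in CJ7_WT (4.63, 4.09 to 5.25), Egln3, with 0.567 and 0.101 RPKM (5.60, 4.54 to 6.95), and Bnip3, with 1.53 and 0.5001 RPKM (3.06, 2.82 to 3.33). Just under the limit stood Slc16a3, with a ratio of 2.15 (1.79 to 2.58), Pfkfb3 at 2.05 (1.90 to 2.20) and Eno2 at 2.07 (1.55 to 2.79). Vegfa stood at 1.75, Ldha at 1.30, Egln1 at 1.22, Pgk1 and Slc2a1 at 1.05 and Pdk1 at 0.967.

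The lowest ratios belonged to Gys1 (0.819, 0.752 to 0.890), Ankrd37 (0.780, 0.379 to 1.56, from 15 and 23 reads), Bnip3l (0.837, 0.788 to 0.889) and Hk2 (0.939, 0.922 to 0.956). Adm, which did not pass the filter, had 1 read in Eed_null and 4 in CJ7_WT. In the second list of hypoxia targets 3 of 27 were higher by more than 2-fold and 0 lower, and of 13 regulators of the factor 0 were beyond 2-fold. The Eed_null and CJ7_WT columns pool 2 libraries each, so that these ratios carry an error between libraries that was not measured. Of the genes named above, the widest replicate gap within an Elongin A group was similar to or wider than the Eed_null ratio for Slc16a3 (10.85-fold), Egln3 (5.03), Bnip3 (4.43) and Ldha (3.32). The same held for Vegfa (2.27), Pfkfb3 (2.17) and Eno2 (2.05), among others. It was smaller than the ratio for P4ha2 (4.74), Ndrg1 (3.485) and Epas1 (1.455). The labels do not settle whether the 2 pools share a line, since the line field of Eed_null reads CCE28 and its column name CJ7. If they do not, the loss of Eed and the line cannot be told apart.

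**Figure D4:**
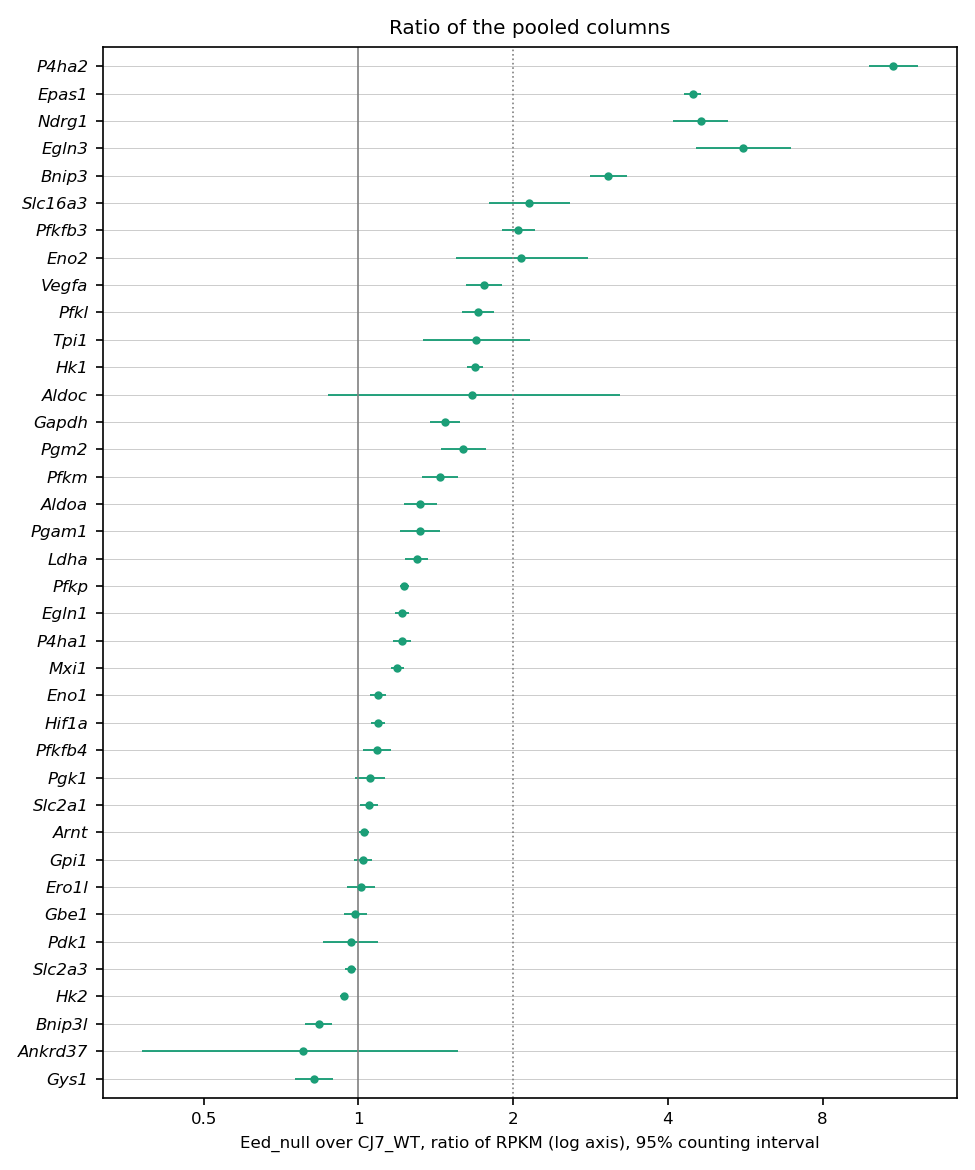
Ratio of intronic RPKM in Eed_null over CJ7_WT for the 38 genes past the filter, on a log axis, with exact 95% counting intervals and a dotted line at 2. Genes are ordered by the log2 ratio of RPKM + 0.1. P4ha2 stands apart at 10.97, and Epas1, Ndrg1, Egln3 and Bnip3 lie between 3.06 and 5.60.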

How the data were processed

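The authors deposited intronic RPKM values (intron reads per length and depth) in 1 table, with 6 library columns and 2 pooled ones. Alignment used BWA against mm9, per the submitters' processing notes. For the BWA version, counter, annotation and strand handling, a statement is not given in the sources used here. RPKM of a gene came out as whole multiples of 1 read for 20815 of 20817 genes with 6 or more columns above 0 (99.99%, within 0.01 of a read, or 0.06 above 2000 reads), which gave reads and depth.

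Limma 3.58.1 under R 4.3.3 (eBayes with trend) was applied to log2(RPKM + 0.1) of 6 libraries. It took the 15161 genes whose mean reached 0.1 RPKM, two-sided, with Benjamini-Hochberg adjustment and a threshold of 0.05. Residual degrees of freedom were 3. Fold changes on this scale understate changes of low genes. The fit was also run on simulated counts. Those for the group comparisons held no shared replicate difference, so that run does not cover replicate gaps like those above. The replicate numbers come from the sample titles and were taken to pair libraries, because replicate differences of the groups correlated at 0.166, 0.197 and 0.152 across genes. The fit without the block is the stated one. Voom was run on recovered reads of 14837 genes. Intervals cover counting error only.

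The genes, lists and naming rule were chosen with earlier results of these data known. Named were genes past the threshold, the 5 with the smallest p in each comparison, the 4 largest Eed_null ratios each way, 11 set genes and up to 4 per pathway list. A result for 1 gene of these lists, and counts of calls that turn on it, are not reported here.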

Additional observations from a re-analysis of the deposited data

How the results depend on the processing

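Counts of the 39 genes past the threshold changed with the test as follows. With the replicate number as a block, calls came to 2 in EloA_K754M against EloA_WT, 3 in EloA_K754R and 3 for the mean of both, where the fit without it made 0, and among the 39 genes it changed no other call. Voom on recovered reads called 2 in EloA_K754R, 1 for the mean and 24 between replicates. A pseudocount of 0.01, or a minimum mean of 0.5 RPKM, gave 1 call in EloA_K754R, Aldoc. For Eed_null, 8 genes were past 2-fold with a pseudocount of 0.01 and 2 with a pseudocount of 1, and 12 were past 1.5-fold. All 12 were higher, and the share of all genes that were higher past 1.5-fold was smaller than the share of these genes. For both pseudocounts the share of all genes is not given here, so those counts cannot be read against all genes. Without any 1 library, calls stayed at 0 in all 5 tested comparisons; leaving out a library was not run together with the block. Calls over all genes ranged across settings from 3 to 342 for EloA_K754M, 1 to 1777 for EloA_K754R, 40 to 1046 for the mean, 12 to 452 between substitutions and 0 to 1309 between replicates, and without 1 library from 2 to 52, 1 to 9, 3 to 35, 5 to 62 and 0 to 5. For Eed_null, 133 to 3187 genes were past the fold.

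Of alternatives chosen after seeing the data, leaving out the pair of EloA_K754M, EloA_K754R or EloA_WT gave 33, 31 and 30 genes lower in replicate 2 in the remaining groups and 26, 25 and 21 without overlap. Equal library medians gave 26 and 13, and a minimum mean of 0.5 RPKM, which leaves 30 of the 39 genes, 25 and 16. The share of all genes under each of these settings is not given here. Fewer groups also meet such a rule more easily, so these counts cannot be read against the shares given above.

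The following directions turned, all of differences that were not called, and the cause was not tested. With library medians made equal, and then with quantile normalization, EloA_K754M against EloA_WT became 0.095 and 0.079 for Hif1a, 0.12 and 0.068 for Slc2a1, 0.10 and 0.065 for Ldha, and 0.11 and 0.11 for Pdk1. EloA_K754R became 0.12 and 0.10 for Arnt and 0.052 and 0.048 for Egln1, and the mean became 0.12 and 0.056 for Bnip3 and, with equal medians alone, 0.035 for Egln3. With chromosome medians removed, EloA_K754M became 0.020 for Slc2a1, 0.0085 for Ldha and 0.028 for Pdk1, EloA_K754R 0.041 for Arnt and 0.13 for Egln1, and the mean -0.13 for Pgk1 and 0.071 for Bnip3. Voom gave -0.0083 for Pgk1 in the mean.

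Without 1 library, differences in EloA_K754M against EloA_WT ran for Hif1a from -0.25 to 0.19, Arnt from -0.017 to 0.24, Egln3 from -1.12 to 0.062, Slc2a1 from -0.62 to 0.59, Ldha from -0.85 to 0.80, Pgk1 from -0.99 to 0.20, Pdk1 from -0.21 to 0.17 and Bnip3 from -1.42 to 0.45. In EloA_K754R they ran for Hif1a from -0.12 to 0.32, Arnt from -0.18 to 0.044, Egln1 from -0.80 to 0.52, Egln3 from -0.54 to 1.10, Slc2a1 from -0.29 to 0.99, Ldha from -0.54 to 1.11, Pgk1 from -0.17 to 1.02 and Bnip3 from -0.53 to 1.34. For the mean they ran for Hif1a from -0.18 to 0.25, Arnt from -0.092 to 0.14, Egln1 from -0.84 to 0.12, Egln3 from -0.72 to 0.47, Slc2a1 from -0.44 to 0.77, Ldha from -0.69 to 0.95, Pgk1 from -0.58 to 0.61, Pdk1 from -0.095 to 0.28 and Bnip3 from -0.97 to 0.89. Between EloA_K754M and EloA_K754R they ran for Egln1 from -1.09 to 0.22, Egln3 from -1.63 to 0.0086, Slc2a1 from -1.001 to 0.28, Ldha from -0.87 to 0.245 and Vegfa from -1.01 to 0.11, and between replicates for Epas1 from -0.30 to 0.036. Vegfa kept its direction against EloA_WT throughout, from -1.95 to -1.11 in EloA_K754M and -1.63 to -0.52 in EloA_K754R, as did Pfkp, from -1.26 to -0.71 and -1.07 to -0.50.

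Values of Eno2, Aldoc, Ankrd37 and Adm rest on under 60 reads a library. Across settings other than leaving out a library, Aldoc in EloA_K754R ran from -2.18 to -0.92, and Vegfa from -1.62 to -1.08 in EloA_K754M and -1.17 to -0.79 in EloA_K754R. With 2 libraries a group, differences well under the replicate gap of a gene were not detectable here.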

Other observations

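The pooled CJ7_WT column can be set beside both EloA_WT libraries as a description, since all lie in 1 table, but no test is possible with 1 column. CJ7_WT lay below both EloA_WT values for 17 of the 39 genes, against 53.1% of the genes tested, and above both for 7, against 28.8%. Of the 15 glycolytic enzymes, 9 lay below both and 1 above both, read beside those shares of all genes. Aldoa stood at 5.09 RPKM in CJ7_WT, against 20.5 and 23.5 RPKM in EloA_WT, Gapdh at 6.84 against 31.7 and 15.5, Pgk1 at 2.73 against 10.4 and 4.51, and Pgam1 at 3.97 against 13.9 and 7.61. Pdk1 stood at 0.537 RPKM, against 1.91 and 1.44 RPKM. Above both were Hk1, at 0.503 against 0.464 and 0.279 RPKM, Epas1, at 0.950 against 0.746 and 0.513 RPKM, and Bnip3l, Gys1, Mxi1, Pfkfb4 and Slc2a3. Eed_null stood near CJ7_WT for Pdk1, at 0.519 RPKM, and for Pgk1, at 2.87 RPKM.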
